A study of Caenorhabditis elegans with 7 samples.

Results

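The genes unc-10 and tag-168 (current symbol rimb-1) encode the Caenorhabditis elegans RIM and RIM-binding protein, scaffolds of the presynaptic active zone. They were chosen by name, as 2 of the 201 genes named in the authors' deposited table, which lists probe sets with higher values in DD neurons than in all cells. That selection used the same arrays, so the differences of both genes between the groups are given as a description with no test. Each gene has 1 named probe set, 173800_at for unc-10 (T10A3.1) and 187024_at for tag-168 (Y39A3CL.2). Neither identifier carries the suffix that Affymetrix gives to probe sets matching several transcripts. Names were available only for listed probe sets, so other probe sets of either gene on the array, if any, were not analysed here, whatever their values.

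The study set 4 arrays of DD motor neurons against 3 arrays of all cells, both from growth-arrested L1 larvae that had hatched in buffer without food. The DD neurons came from strain CZ8332, which carries the integrated transgene juIs223 in which the ttr-39 promoter drives mCherry and the ttx-3 promoter drives GFP. They were isolated by fluorescence-activated sorting for mCherry, per the series design, although a characteristics label of these samples names GFP. The all-cell RNA came from the wild-type strain N2, which carries neither reporter, and no sort is recorded for it in the sources used here. RNA of both groups was amplified from a few nanograms and hybridised to Affymetrix genome arrays. Strain, transgene, sort and cell type changed together, so their shares in any difference cannot be told apart. The full sequence of the transgene is not given in the sources used here, so unc-10 transcripts and any unc-10 sequence in the transgene that the probe set could read cannot be told apart either. No label ties the replicates to separate cultures, so the errors below cover differences between arrays that may be technical.

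RIM proteins hold vesicles and release machinery together at the site of exocytosis. They bind the vesicle GTPase Rab3 and the priming factor Munc13 (RAB-3 and UNC-13 in the worm), and they link to voltage-gated calcium channels directly and through RIM-binding protein, whose SH3 domains bind both RIM and the channels. In the worm, loss of unc-10 reduces evoked release and makes movement uncoordinated while active zones still form, and UNC-10 and RIMB-1 act in parallel to place the calcium channel UNC-2. DD neurons are GABAergic motor neurons that, in L1 larvae, form release sites onto ventral muscle and later move them to dorsal muscle.

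Values are RMA log2 levels as deposited, over 22548 probe sets after array controls were left out. The array medians ranged from 5.21 to 5.37. Of 9 listed markers of GABA D-type motor neurons, 7 could be named through the authors' list, and 6 of these passed a limma adjusted p under 0.05, with log2 differences from 1.51 to 3.48 over the 7. Over all probe sets 0.191% passed with DD neurons higher, and since the list holds higher probe sets alone, it fixed the direction of the 7 and nothing is read from their count. The 2 others, flp-13 and snf-11, have no named probe set. The GABA-synthesis gene unc-25 averaged 11.29 ± 0.30 (SD) over the 4 DD arrays and 8.23 ± 0.29 (SD) over the 3 all-cell arrays. Of 4 listed markers of body muscle, 4 of intestine and 2 of germ line, 1 each could be named through the list (ttn-1, acdh-1 and pgl-1). Their log2 differences were 1.18, 1.86 and 1.07, with limma adjusted p of 0.134, 0.189 and 0.224. The list fixed their direction too, and the groups overlapped for acdh-1 and pgl-1. The pgl-1 probe set carries the suffix for matching several transcripts. For ttn-1, 1 of 3 named probe sets is given, and for the D-type markers unc-46 and unc-30, 1 of 2 each. No cholinergic, AIY, epidermal, pharyngeal or glial marker fixed for this comparison could be named. The part of other cell types in the results was not tested.

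The RIM gene unc-10 was bright in DD neurons and near the middle of the array in all cells. Its log2 level in the DD arrays was 11.71, 11.38, 11.58 and 11.33 for replicates 1 to 4, against 5.28, 5.48 and 4.55 in all cells replicates 1 to 3. All 4 DD arrays thus lay within 0.38 of each other, and the groups were 5.85 apart at their closest. The range within the all-cell arrays was wider, at 0.92, with replicate 3 the lowest. The mean was 11.50 ± 0.18 (SD) over the 4 DD arrays and 5.10 ± 0.49 (SD) over the 3 all-cell arrays. The log2 difference was 6.40 ± 0.24 (standard error, SE, from limma).

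Set against the other probe sets of the same array, unc-10 exceeded 98.88%, 98.29%, 98.71% and 98.35% of them in DD neurons replicates 1 to 4. In all cells it exceeded 49.14%, 51.89% and 38.85%. In the DD arrays, between 251 and 385 probe sets were brighter. Relative to the array's own median it stood at -0.05, 0.14 and -0.82 (log2) in all cells replicates 1 to 3. The deposited values carry no detection call, so the all-cell level was not shown to lie above background. The corresponding 84.4-fold ratio is therefore not exact. With every value below its array's median raised to that median, an alternative chosen after the values were seen, the difference was 6.11 (69.0-fold).

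The RIM-binding protein gene tag-168 was well above the array medians in both groups and moderately higher in DD neurons. Its log2 level was 9.43, 8.85, 9.45 and 9.14 in DD neurons replicates 1 to 4, against 7.65, 8.58 and 8.003 in all cells replicates 1 to 3. The groups did not overlap, but DD replicate 2, the lowest of its group, lay 0.27 above all cells replicate 2, the highest of its group. That gap was narrower than the range within either group, which was 0.60 in DD neurons and 0.93 in all cells. The mean was 9.22 ± 0.28 (SD) over the 4 DD arrays and 8.08 ± 0.47 (SD) over the 3 all-cell arrays. The log2 difference was 1.14 ± 0.26 (SE), or 2.20-fold.

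The tag-168 probe set exceeded 93.72%, 90.29%, 93.59% and 91.95% of probe sets in DD neurons replicates 1 to 4. It exceeded 80.39%, 87.52% and 83.48% in all cells replicates 1 to 3. Levels of different probe sets are not on a common scale, since probes differ in affinity and background, so each gene is set here against the array's median and not against the other gene. The tag-168 level stood 2.32 to 3.24 (log2) above the array's median in every all-cell array, and 3.57 to 4.16 above it in the DD arrays. In bulk RNA such as the all-cell samples, fewer cells expressing a gene and less of its RNA per cell cannot be told apart. For both genes the lowest DD array exceeded the highest all-cell array, which held for 6.98% of all probe sets, and the choice of both genes from the list of higher probe sets leaves nothing to be read from this.

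**Figure D1:**
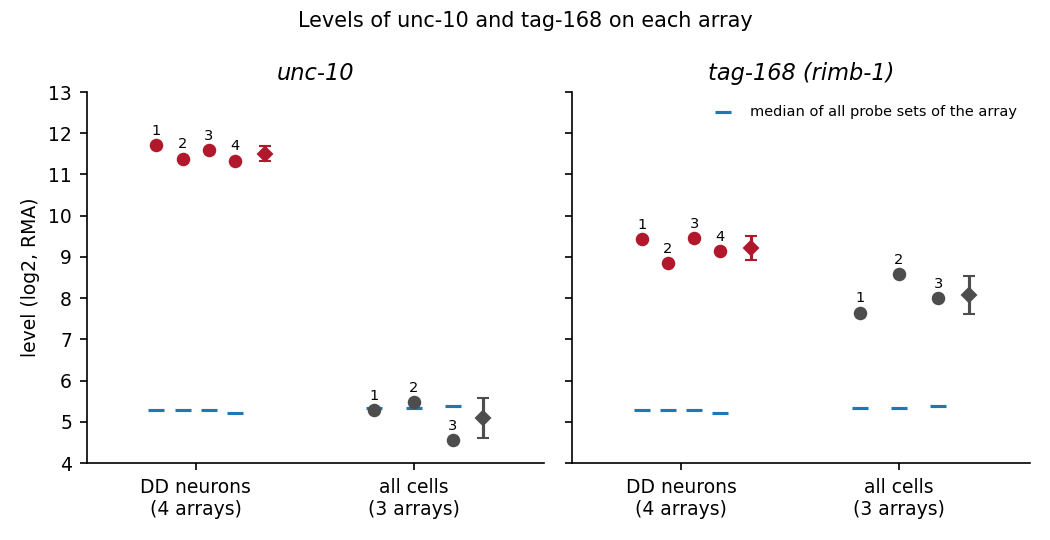
Log2 RMA level of unc-10 and tag-168 (rimb-1) on each array, with the 4 DD neuron arrays left of the 3 all-cell arrays. Dots are arrays with their replicate number, diamonds with bars are the group mean ± SD, and short blue lines mark the median of all probe sets of the array. The unc-10 levels lie between 11.33 and 11.71 in DD neurons and around the array medians in all cells, while tag-168 stands clear of the medians in both groups.

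The difference of unc-10, as its probe set read it, was the largest of all 22548 probe sets. The next largest was 4.76, which left unc-10 ahead by 1.64 on the log2 scale, and it was the 1 probe set with a difference of 5 or more. The median difference over all probe sets was 0.06, and the 5th and 95th percentiles were -0.93 and 0.66. The tag-168 difference ranked 215 of 22548, just past the 99th percentile of 1.12. Within the authors' list of 236 higher probe sets, whose differences start at 1.00, it lay in the lower part, with 161 listed probe sets above it and 74 below. The log2 difference of unc-10 exceeded that of tag-168 by 5.26 ± 0.29 (SE over the 7 arrays), a value that the choice of both genes bears on and that was not tested. Like the unc-10 difference itself it is not exact, and with the floor at the array median it was 4.97.

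**Figure D2:**
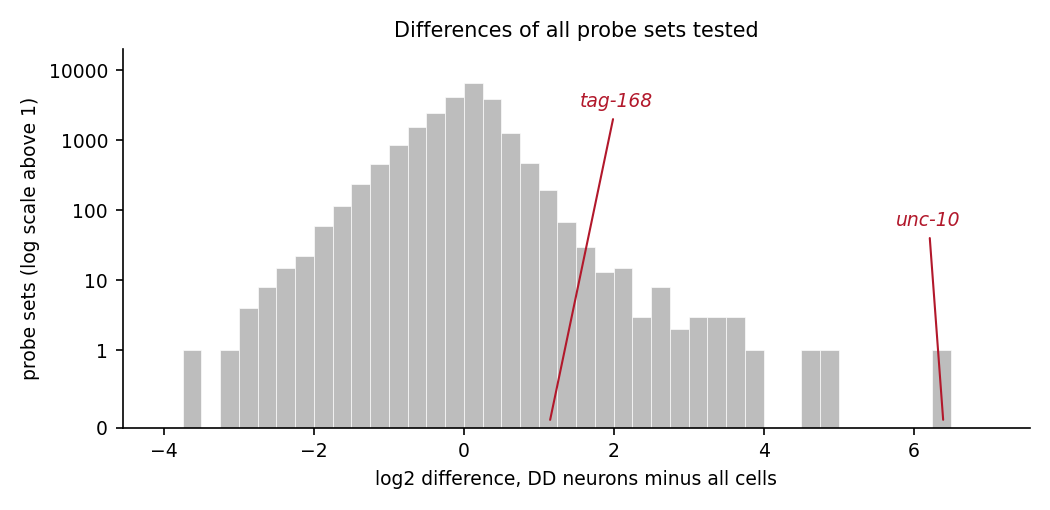
Distribution of the log2 difference, DD neurons minus all cells, over 22548 probe sets in bins on the x axis, with the number of probe sets on a log scale above 1. The lines point to unc-10 at 6.40, alone at the right edge, and to tag-168 at 1.14, on the right shoulder of the distribution.

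The spread between arrays was near the middle of all probe sets for both genes. The list was not cut on the difference alone, since it holds 161 of the 214 probe sets with a larger difference than tag-168. Whether the choice from the list bears on the spread was not tested. The pooled SD within groups was 0.34 for unc-10 and 0.37 for tag-168, against a median of 0.32 over all probe sets, and 52.69% and 59.45% of probe sets had a smaller one. Within the DD arrays, replicates 1 and 3 lay above the group mean and replicates 2 and 4 below it for both genes. The deviations were 0.21, -0.12, 0.08 and -0.17 for unc-10 and 0.21, -0.37, 0.23 and -0.08 for tag-168. Within the all-cell arrays, replicate 2 was the highest for both genes, at 0.37 and 0.50 above the group mean. The lowest array was replicate 3 for unc-10 and replicate 1 for tag-168.

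Each array in turn was left out to see how far 1 array sets these values. The difference of unc-10 then ranged from 6.12 without all cells replicate 3 to 6.59 without all cells replicate 2, or 69.8-fold to 96.1-fold. That of tag-168 ranged from 0.93 without all cells replicate 1 to 1.39 without all cells replicate 2, or 1.90-fold to 2.62-fold. In both genes the lowest and the highest value came from leaving out an all-cell array.

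Genes of the active zone, its channels, vesicle release and axonal transport were grouped by role into 4 lists of 61 gene names. They are called partners here for these roles, not for a shown contact with RIM or RIM-binding protein. Of the 61 names, 9 have a named probe set. All 9 come from the authors' list of higher probe sets, which fixed their direction, and the other 52 names have none and were not analysed here. By limma, 2 of the 9 passed an adjusted p under 0.05 over all probe sets with DD neurons higher, where 0.191% of all probe sets did, and 0 passed as lower, where 0.226% did. At an unadjusted p under 0.05, 6.07% of all probe sets were higher and 9.30% lower. The median log2 difference of the 9 was 1.04, against 0.06 for all probe sets. Since the selection fixed these values, nothing is read from them. The same holds for the calls and limma p of single partners below, which come from the arrays that selected the list. They are given as a description.

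Of 21 listed genes for the scaffold and assembly of the active zone, 3 could be named, and 1 passed. The kinase gene sad-1, which acts in presynaptic assembly and neuronal polarity, had log2 levels of 9.02, 8.72, 8.51 and 8.75 in DD neurons replicates 1 to 4, against 7.56, 7.62 and 7.72 in all cells replicates 1 to 3. All DD arrays lay above all of the all-cell arrays, with a difference of 1.11 ± 0.17 (SE, limma adjusted p = 0.0466). That call was lost whichever of the 7 arrays was left out, with limma adjusted p from 0.0861 to 0.188. The CDK-5 activator gene cdka-1 had a difference of 1.22 ± 0.23 (limma adjusted p = 0.0858). It stood at 8.56 ± 0.40 (SD, n = 4) in DD neurons, where replicate 1 read 9.15 and the others 8.24 to 8.50, and at 7.34 ± 0.09 (SD, n = 3) in all cells. The adhesion protein gene syg-1, which in the HSN neuron places synapses, had a difference of 1.14 ± 0.24 (limma adjusted p = 0.0997). The Munc13 gene unc-13, the liprin gene syd-2 and the ELKS gene elks-1, whose products bind or neighbour RIM, have no named probe set.

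Of 19 listed names for the RAB-3 cycle, docking and priming, 6 could be named, and 1 passed. The gene nsf-1, whose ATPase takes SNARE complexes apart after fusion, averaged 8.91 ± 0.22 (SD) over the 4 DD arrays and 7.52 ± 0.22 (SD) over the 3 all-cell arrays, a difference of 1.39 ± 0.19 (SE, limma adjusted p = 0.0342). This call, too, was lost whichever of the 7 arrays was left out, with limma adjusted p from 0.0547 to 0.16. The other 5 did not pass, with limma adjusted p from 0.0804 to 0.128. Their log2 differences were 1.00 for the syntaxin gene unc-64, 1.01 for the SNAP-25 gene ric-4, 1.01 for the syntaxin-binding protein gene unc-18, 1.03 for the endocytic adaptor gene ehs-1 and 1.04 for the dense-core vesicle priming gene unc-31. The probe sets of nsf-1, unc-64 and ric-4 carry the suffix for matching several transcripts. Neither the 12 listed channel genes, with the calcium channel gene unc-2 among them, nor the 9 listed genes of axonal transport have a named probe set.

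Beside the 9 named partners, tag-168 lay within their range and unc-10 far outside it. The 9 differences ran from 1.00 to 1.39, with 7 below the 1.14 of tag-168. The authors' list starts at a difference of 1.00, which set the lower end, and the other 52 names have no value. Where tag-168 stands among all the listed partners therefore cannot be told. The unc-10 difference exceeded the largest of the 9 by 5.01 on the log2 scale, or by 4.72 with the floor at the array median. The floored value is given since the all-cell level of unc-10 was not shown to be above background.

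**Figure D3:**
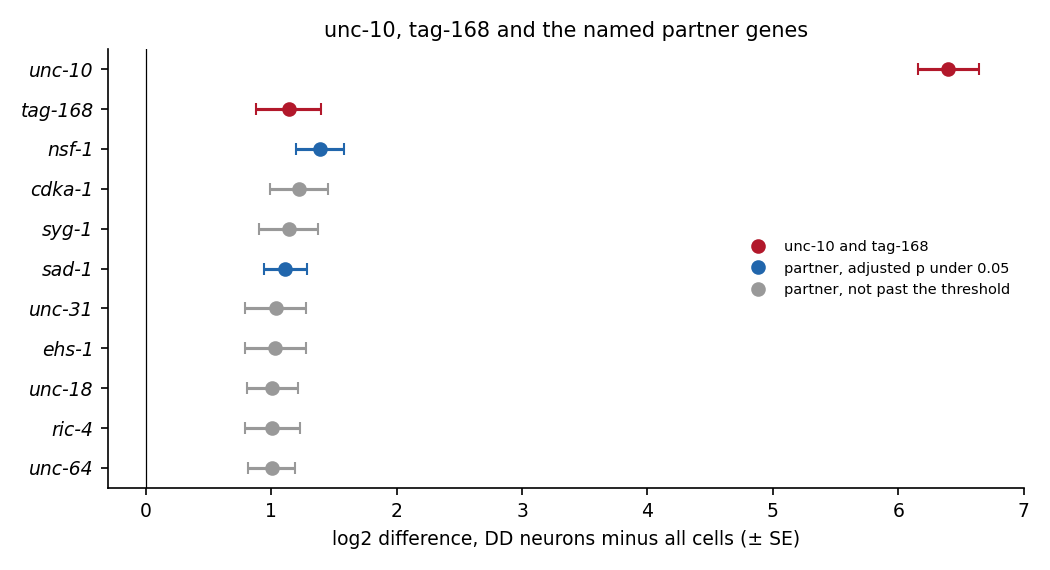
Log2 difference, DD neurons minus all cells, with its SE (bars) for unc-10, tag-168 and the 9 partner genes that could be named. Partners in blue (nsf-1 and sad-1) passed a limma adjusted p under 0.05 with all 7 arrays, and those in grey did not. The list that named them was selected on these arrays, so the colours only describe. The partners and tag-168 lie between 1.00, where the authors' list starts, and 1.39, and unc-10 lies at 6.40.

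Genes with a profile like that of unc-10 or tag-168 were looked for among the other 200 named genes, by the root mean square distance between 7-array profiles that had each been centred on its own mean. This distance grows with a mismatch in the size of the group difference, and by it the profiles nearest to unc-10 were not close. The smallest distance, 1.08 (log2), belonged to the small heat shock protein gene hsp-16.41, followed by Y53G8AM.5 (now nspg-7.2) at 1.36 and ttr-39, the source of the mCherry promoter, at 1.45. The Hsp70-family genes F44E5.4 and F44E5.5 followed at 1.51 and 1.52, and both have probe sets marked as matching several transcripts. These 5 have differences of 3.48 to 4.76, all smaller than that of unc-10. The median distance to the 200 genes was 2.59. In shape the 5 were more alike, with a Pearson r with unc-10 over the 7 arrays of 0.913 to 0.994 (0.994 for ttr-39), which the separation of the groups raises, and of 0.279 to 0.865 after each group was centred on its mean.

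Profiles nearest to tag-168 lay at smaller distances. The distance was 0.16 for Y19D10A.4 and 0.17 for the aldolase gene aldo-1, whose probe set is marked as matching several transcripts. It was 0.19 for F20D1.1 (now flwr-1, the worm relative of the fly vesicle protein Flower). For F15A8.4 it was 0.23, and for mpz-1, which encodes a protein with many PDZ domains, 0.25. The median distance was 0.54, and r with tag-168 over the 7 arrays was 0.92 to 0.977 for the 5, or 0.599 to 0.903 after each group was centred on its mean. In the first 4 of these genes and in tag-168 itself, DD replicate 2 was the lowest DD array and all cells replicate 2 the highest all-cell array. In mpz-1 DD replicate 2 was also the lowest, while all cells replicate 3 was the highest of its group. Among the 200 genes unc-10 was the farthest from tag-168, with a distance of 2.62, and tag-168 ranked 123 by distance from unc-10. This distance carries the mismatch between their group differences of 6.40 and 1.14. In shape the pair was more alike, with a Pearson r of 0.891 over the 7 arrays. After each group was centred on its mean, r was 0.441. These distances and correlations describe 7 arrays that share their samples and their normalization. The nearest genes were picked by distance over these same arrays, which favours a shared order of arrays and a high r. Nothing is therefore read from the shared order or from r.

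**Figure D4:**
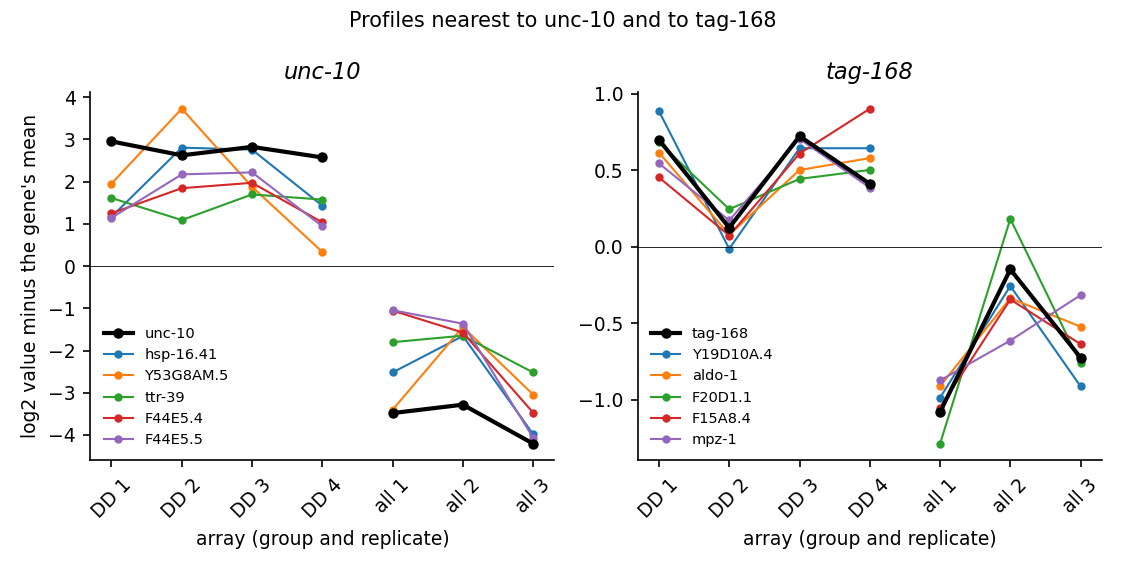
Log2 value minus the gene's own mean over the 7 arrays, for unc-10 (left) and tag-168 (right) in black and the 5 nearest of 200 named genes in colour. Arrays run along the x axis, DD neurons first, and points of a group are joined only to show a profile. The unc-10 profile lies outside its neighbours in most arrays. The tag-168 neighbours, at distances of 0.16 to 0.25, share its low DD replicate 2. They were picked for closeness on these same arrays, so nothing is read from the sharing.

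In the RefSeq gene table of assembly WBcel235, unc-10 lies on chromosome X and rimb-1 on chromosome III. Each has 2 genes for non-coding RNA overlapping it, T10A3.2 and T10A3.5 for unc-10 and Y39A3CL.8 and Y39A3CL.9 for rimb-1. The nearest protein-coding genes are F46H5.11 and lron-7 beside unc-10 and Y39A3CL.3 and clp-4 beside rimb-1. None of these 8 genes is named in the authors' list, which holds 236 probe sets where 22548 were tested. Names were available only for listed probe sets, so the neighbours have no value here and nothing is read from their absence.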

How the data were processed

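Log2 values of 22625 probe sets on 7 arrays were used as the authors deposited them, and per the submitters' processing notes they were made with RMA, which corrects background, normalizes between arrays and summarises probes. For the version of RMA and the probe set definition nothing was given in the sources used here. Gene names came from the authors' deposited list of 236 higher probe sets, 222 of which name 201 genes. The log2 differences deposited there matched the value table, and its score and fold columns were not used. By sequence name, 198 of the genes matched the RefSeq gene table of WBcel235.

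After 77 array controls were left out, limma 3.58.1 in R 4.3.3 (lmFit, eBayes, no covariates, all 7 arrays) gave differences, SE and Benjamini-Hochberg adjusted two-sided p over 22548 probe sets, with 5 residual and 3.13 prior degrees of freedom. The number of arrays limits the precision. The members, partner lists, markers and alternatives were chosen with earlier results of these data known. For each partner list every named member was reported, by probe sets matching 1 transcript first and then by the highest mean, and for each of unc-10 and tag-168 the 5 nearest named genes. Tables came from pandas 2.3.3 under Python 3.11.15. The replicate numbers shared by both groups were not used to pair the arrays in the main fit.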

Additional observations from a re-analysis of the deposited data

Results flagged for a closer look

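A DD array far from the other 3 was looked for in 21 genes (unc-10, tag-168, the partners and the markers) and found in unc-25. Chance gives such an array in about 1 of 20 genes, so 1 among 21 is near what chance gives. DD replicate 2 read 10.84 (log2) for unc-25, while the other 3 DD arrays read 11.39 to 11.46. Neither unc-10 nor tag-168 had such an array, although DD replicate 2 was the lowest DD array for tag-168 too.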

How the results depend on the processing

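The differences of unc-10 and tag-168 moved by less than the pooled SD under each of 12 alternatives, not all of which were separate checks. Averaging a gene's probe sets changes nothing, since each gene has 1 named probe set. The floor at the array median could not move tag-168, which lay above the median on every array. The replicate block repeats the differences found without DD replicate 4. With 1 array left out, the unc-10 difference ranged from 6.12 to 6.59 and that of tag-168 from 0.93 to 1.39. Under the other 5 alternatives they ranged from 6.11 to 6.48 and from 1.14 to 1.23. The partner median of 1.04 ranged from 1.00 to 1.17 with 1 array left out. It moved by less than the pooled SD of the partners' mean level under 12 of 14 alternatives. The exceptions were without DD replicate 3 (1.15) and without all cells replicate 3 (1.17). The calls of sad-1 and nsf-1 kept their direction but were lost with each array left out and with the replicate block (limma adjusted p 0.163 and 0.136), and that of sad-1 also with a trended, robust prior (0.0801). Counts of called probe sets depended on the setting. With 1 array left out, 6 to 23 were higher and 0 to 39 lower (limma). The 0, without DD replicate 1, stood beside 1779 lower at an unadjusted p under 0.05. Among probe sets above the median mean level, 65 were higher and 93 lower, and 28 and 33 were lower after median centring and quantile normalization. The replicate block gave 2 higher and 0 lower (2075 lower at an unadjusted p under 0.05) with 2 residual degrees of freedom. Its differences, 6.46 for unc-10 and 1.17 for tag-168, were those without DD replicate 4, which has no same-numbered all-cell array. The correlations of the deviations of same-numbered arrays were -0.06, 0.09 and 0.13 for numbers 1 to 3. DD replicates 2 and 3 correlated best with the all-cell array of their own number, and DD replicate 1 did not. Such small correlations over few arrays cannot tell whether same-numbered arrays were prepared together. The cause of the changes between settings was not tested, apart from the fewer arrays, probe sets or degrees of freedom named. With no detection calls or background levels, the signal over background that limits the unc-10 fold was not measured.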
